A study of Mus musculus with 2 samples.

Results

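The globins are the protein chains of haemoglobin, and Eraf (also written Ahsp) encodes the chaperone that holds free alpha-globin until it pairs with beta-globin. They were followed in LSK cells, a population of mouse bone marrow rich in blood stem and progenitor cells and sorted as lineage-negative, Sca-1-positive and c-Kit-positive. The members were chosen by name: every gene probe on both arrays whose gene name was Hba-a1, Hba-a2, Hba-x, Hbb-b1, Hbb-b2, Hbb-bh1, Hbb-y or Eraf. Of these 8 names, 7 had probes, 11 in all, out of 27743 gene names and 41170 probes. No probe carried the name Hbb-b2. RNA of LSK cells from C57BL/6 mice was hybridised to 1 array for wild-type mice and 1 array for PAD4-deficient (PAD4-/-) mice. PAD4 is an enzyme that turns arginine of histones into citrulline. The sources used here give neither the age or sex of the mice, nor the design of the PAD4 allele, nor whether mice were pooled. With 1 array per group no test between the genotypes was possible. Each error below is the scanner software's error of a spot, or of the mean where a probe was printed several times. It covers the measurement and not the spread between mice.

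Adult haemoglobin joins alpha chains, made by Hba-a1 and Hba-a2, with beta chains. The embryonic chains, alpha-like Hba-x and beta-like Hbb-y and Hbb-bh1, are made by the first red cells of the yolk sac. The alpha-like and the beta-like genes lie in separate clusters, and in each cluster the genes are switched on in turn during development. Erythroid transcription factors such as GATA1 and KLF1 bind their promoters and distant enhancers. In the bone marrow, globin RNA is known above all from erythroblasts and reticulocytes, cells that a sort for lineage-negative cells should leave out.

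The promoters are shown for 1 adult and 1 embryonic gene of each cluster, because the adult probes were bright while those of the embryonic genes were dim or at background, and because the adult alpha genes share theirs. They are the 250 bases before the gene start in RefSeq, build GRCm38.p6, read 5′ to 3′: Hba-a1 (chr11:32283422-32283671, plus strand), Hba-x (chr11:32276350-32276599, plus strand), Hbb-bt (chr7:103813924-103814173, minus strand) and Hbb-y (chr7:103853208-103853457, minus strand). Hbb-bt is the present RefSeq name of the transcript that the array files call Hbb-b1. Capitals mark 4 short motifs, searched on both strands. The first is CACCC, which erythroid Krüppel-like factors bind. The next is GATAA, the core that erythroid zinc finger factors of the GATA family recognise. The others are CCAAT, named after its letters and common in promoters, and TATAAA, where the basal transcription machinery assembles.
Hba-a1: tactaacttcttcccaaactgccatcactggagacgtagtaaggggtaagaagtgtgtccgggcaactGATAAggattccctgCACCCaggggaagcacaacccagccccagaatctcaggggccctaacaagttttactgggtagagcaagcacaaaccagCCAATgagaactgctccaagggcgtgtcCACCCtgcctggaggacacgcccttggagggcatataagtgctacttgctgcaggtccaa
Hba-x: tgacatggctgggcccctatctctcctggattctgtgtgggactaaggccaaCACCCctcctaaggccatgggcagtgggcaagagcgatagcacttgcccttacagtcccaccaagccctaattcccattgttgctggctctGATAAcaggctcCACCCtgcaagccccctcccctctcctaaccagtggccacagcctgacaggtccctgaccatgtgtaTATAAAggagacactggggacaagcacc
Hbb-bt: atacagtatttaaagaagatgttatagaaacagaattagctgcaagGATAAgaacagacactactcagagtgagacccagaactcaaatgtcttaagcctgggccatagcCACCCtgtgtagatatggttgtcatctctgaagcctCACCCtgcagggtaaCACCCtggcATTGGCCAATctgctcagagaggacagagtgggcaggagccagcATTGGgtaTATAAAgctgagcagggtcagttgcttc
Hbb-y: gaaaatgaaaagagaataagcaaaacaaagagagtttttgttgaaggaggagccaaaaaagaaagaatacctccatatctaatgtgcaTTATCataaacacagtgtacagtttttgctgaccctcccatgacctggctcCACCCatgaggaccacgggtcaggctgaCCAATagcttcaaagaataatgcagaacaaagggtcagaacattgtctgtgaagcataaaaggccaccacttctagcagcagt

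CACCC was found in all 4 windows, with 3 copies in Hbb-bt, 2 in Hba-a1, 2 in Hba-x and 1 in Hbb-y. GATAA was found once in each of them. CCAAT was found 3 times in Hbb-bt, once in Hba-a1 and once in Hbb-y, and 2 of the copies in Hbb-bt lie side by side on opposite strands. TATAAA was found in Hba-x and Hbb-bt. Of 32851 promoter windows of this length, 52.0% held CACCC, 33.8% CCAAT, 22.6% GATAA and 12.4% TATAAA. The windows of Hba-a1 and Hba-a2, set against each other with a shift of 3 bases, were the same at all 247 bases compared. At the best shift, without gaps, adult and embryonic promoters of a cluster were far less alike: 29.8% of bases were the same between Hba-a1 and Hba-x and 34.4% between Hbb-bt and Hbb-y. A match of letters is a description and not a bound site.

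Of the 11 probes, 8 were well above background by the scanner software's flag on both arrays, and these are called measured. They were all 6 adult globin probes, the Hbb-y probe and the Eraf probe, so 5 of the 7 genes were measured. The other 3, of Hba-x and Hbb-bh1, were not well above background on either array. No member spot was saturated, and each probe was printed once per array. The signal is the processed signal, an intensity in arbitrary units after background subtraction. Probes bind with different strength, so a rank below orders signals and not amounts of RNA. Differences are PAD4-deficient minus wild-type in log2 units, after each array was scaled to its 75th percentile, 814 for the wild-type and 786 for the PAD4-deficient array.

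Padi4, which encodes PAD4, had 12879 in wild-type and 2670 in PAD4-deficient cells (-2.22), with all 3 probes lower. All 8 LSK markers, Kit and Ly6a among them, were well above background on both arrays, with a median difference of -0.04. Of these, Flt3, a receptor of multipotent progenitors, was at least 1.5-fold lower, at -0.67 (2439 and 1481). Xist had 3.93 in wild-type cells, not well above background, and 16255 in PAD4-deficient cells. The Y-linked Ddx3y had 3455 and 1297, a difference of -1.36. The PAD4-deficient cells thus gave clear signals of both Xist and Ddx3y, and the wild-type cells of Ddx3y but not of Xist. These values do not describe a plain contrast of female with male cells. Whether RNA of both sexes was mixed in the PAD4-deficient sample was not tested. Xist and Ddx3y differed between the same arrays as the genotype, so sex make-up and genotype cannot be told apart here. The 8 B cell markers were all above 0, as were 9361 of 17019 measured genes. Their median was 0.81 and their summed levels were 13.6 and 21.1 in units of each array's 75th percentile. The 6 megakaryocyte markers had a median of 0.19 and sums of 12.5 and 15.8. Of 8 macrophage markers 7 were measured, with a median of 0.08 and sums of 2.52 and 2.96, and Vsig4 (14.6 and 260.5) was above background in PAD4-deficient cells alone. Of the T cell markers only 2 were measured, with a median of 0.02 and sums of 0.180 and 0.278, and Cd8a (9.74 and 75.5) and Cd3d (13.4 and 22.0) were above background in PAD4-deficient cells alone. Whether any of these bears on the Eraf and globin values was not tested.

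**Figure D1:**
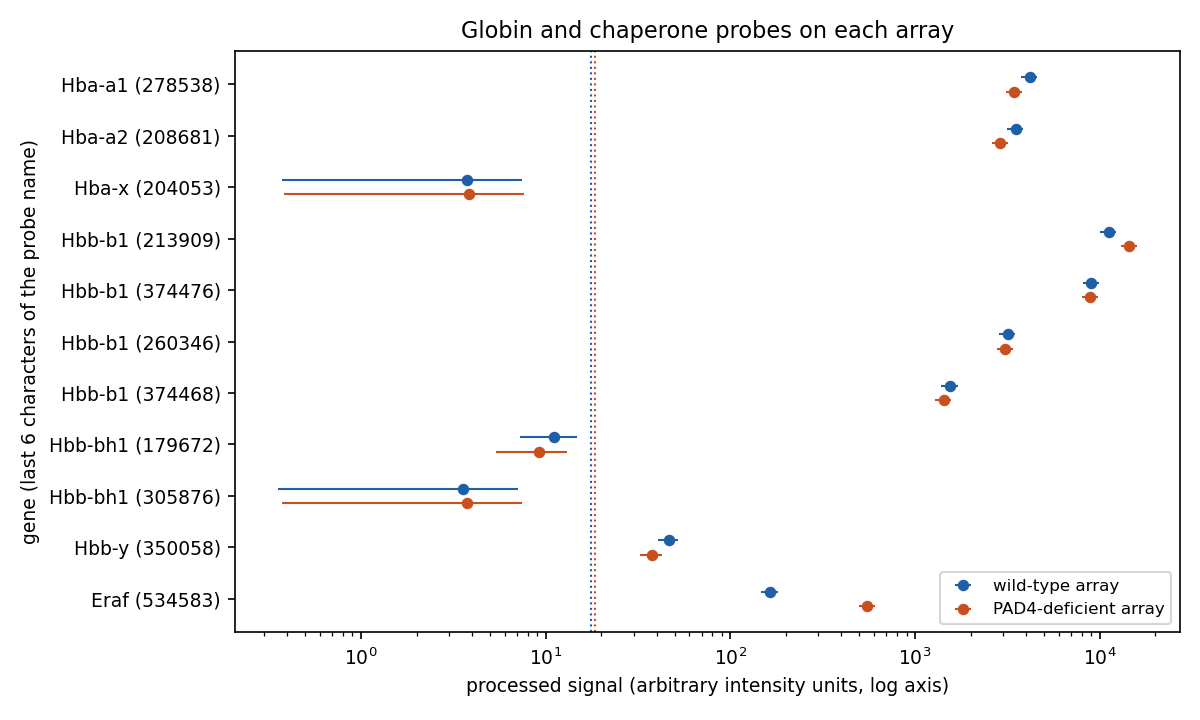
Processed signal (log axis, intensity units) of the 11 globin and chaperone probes on the wild-type (blue) and PAD4-deficient (orange) array, with the scanner's error as bars, shortened on the left for the dimmest probes, and dotted lines at the lowest signal well above background on each array (17.7 and 18.5). The 6 adult globin probes lie between 1429 and 14449, the Hba-x and Hbb-bh1 probes lie left of the lines, and the Eraf points (164 and 552) are the farthest apart of the measured probes.

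Both adult alpha-globin probes were bright and slightly lower on the PAD4-deficient array. The Hba-a1 probe (mm8 chromosome 11, 32183775 to 32183956) gave 4176 ± 418 in wild-type and 3454 ± 345 in PAD4-deficient cells. It ranked 4009 and 4531 of the 41170 probes, the brightest being 1. The difference was -0.22 with an error of 0.20. The files list the transcripts of both Hba-a1 and Hba-a2 for this probe, which spans 182 bases of the genome, against 60 for each other member probe with coordinates.

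The Hba-a2 probe (mm8 chromosome 11, 32196744 to 32196803) had 3508 ± 351 in wild-type and 2896 ± 290 in PAD4-deficient cells. It ranked 4604 and 5138, and the difference was -0.23 with an error of 0.20. The alpha-globin differences were thus just past their errors, and the probes differed from each other by 0.00 with an error of 0.29. Across all 25520 measured probes, 30.4% had a difference of at least the size of that of Hba-a1 and 30.0% of at least that of Hba-a2. Both stayed below 0 under every alternative scaling and background setting tried. Since the Hba-a1 probe is listed for both transcripts, its signal cannot be assigned to 1 of the alpha-globin genes.

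Beta-globin, the partner chain of alpha-globin, was read by 4 probes, all named Hbb-b1 on chromosome 7. As background, C57BL/6 mice carry the beta-globin haplotype whose adult genes are now called Hbb-bs and Hbb-bt, while the names Hbb-b1 and Hbb-b2 belong to the other common haplotype. The files list the Hbb-b2 transcript beside that of Hbb-b1 for 2 of the 4 probes, the one nearest the 3′ end and the one farthest from it. The files thus do not tie these signals to 1 adult beta-globin gene.

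The probe nearest the 3′ end (mm8, 103686419 to 103686478, minus strand) was the brightest member on both arrays. Its signal was 11209 ± 1121 in wild-type and 14449 ± 1445 in PAD4-deficient cells. It ranked 1582 and 1156, and the difference was 0.42 with an error of 0.20, a 1.33-fold higher signal. Of 9401 measured probes with a wild-type signal above 1000, 3.89% had a difference of at least this size in either direction.

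The other beta-globin probes were alike on both arrays. The probe at 103687307 to 103687366 had 9024 ± 902 and 8909 ± 891, with ranks of 2018 and 1965 and a difference of 0.03. The probe at 103687338 to 103687397, which overlaps it, had 3176 ± 318 and 3074 ± 307, with ranks of 4930 and 4905 and a difference of 0.00. The signs of these differences turned under other scalings, and both sizes were far inside the error of 0.20. The probe at 103687624 to 103687683 had 1545 ± 155 and 1429 ± 143, ranked 7624 and 7766, and differed by -0.06 (error 0.20).

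The 3′-most probe had the highest difference of the beta-globin probes. The others start 888, 919 and 1205 bases from the 3′-most probe, toward the 5′ side of the gene. It exceeded them by 0.38, 0.41 and 0.48 in log2 difference, each with an error of 0.29. These gaps do not depend on the scaling, and each was larger than its error but smaller than 2 errors. The 2 overlapping probes, which share part of their target, differed by less than their errors. Their signals on the wild-type array were 9024 and 3176.

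**Figure D2:**
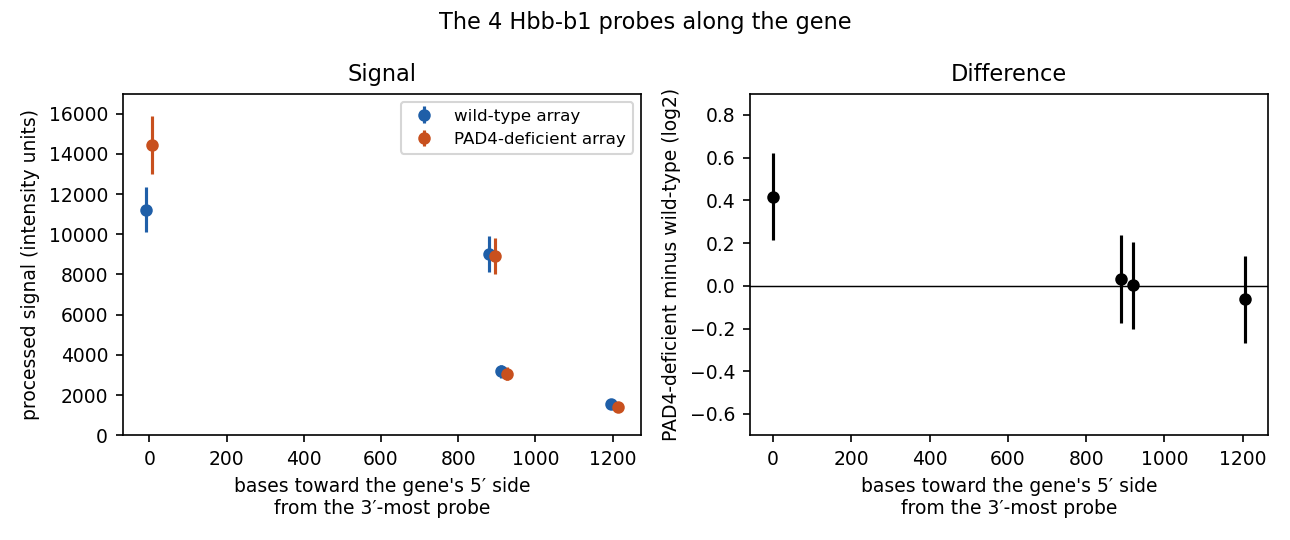
Processed signal (left, intensity units, blue wild-type and orange PAD4-deficient, drawn slightly apart) and log2 difference (right) of the 4 Hbb-b1 probes against their distance in bases from the 3′-most probe; bars are the scanner's error. The 3′-most probe lies at 0.42 and the others between -0.06 and 0.03.

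Set against alpha-globin, the 3′-most beta-globin probe had a difference that was larger by 0.64 than those of Hba-a1 and Hba-a2, with an error of 0.29. For the other beta-globin probes this gap ran from 0.16 to 0.26, inside the error of 0.29. The gap between beta-globin and alpha-globin thus passed its error with 1 of the 4 beta-globin probes. Over the 6 adult globin probes the median difference was -0.03, with 3 probes below 0. The median of all measured probes was 0.02. None of the 6 was 1.5-fold different in either direction.

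Of the embryonic chains, only Hbb-y, the beta-like chain of primitive red cells, was measured. Its probe (mm8 chromosome 7, 103726719 to 103726778) had 46.4 ± 5.87 in wild-type and 37.5 ± 5.25 in PAD4-deficient cells. It ranked 22256 and 23267, and the difference of -0.26 was within its error of 0.27. Before background subtraction its spot mean was 120 on the wild-type array, where 2 of 153 negative control spots were brighter, and 113 on the PAD4-deficient array, where none was. The signal of Hbb-y was thus close to the brightest negative controls.

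Hba-x, the embryonic alpha-like chain (mm8 chromosome 11, 32177668 to 32177727), gave 3.75 ± 3.74 in wild-type and 3.83 ± 3.83 in PAD4-deficient cells. Its spot means were 69.4 and 72.6, exceeded by 34 and 23 of the 153 negative control spots. The Hbb-bh1 probe at 103715614 to 103715673 on chromosome 7 had 11.1 ± 3.82 and 9.23 ± 3.84, with 2 and 5 negative controls brighter. The other Hbb-bh1 probe, at 103715634 to 103715693, had 3.57 ± 3.56 and 3.75 ± 3.74, with 19 and 10 brighter. No difference is given for these 3 probes, since none was flagged well above background on either array. They ranked between 29028 and 40490 on the wild-type array, where dim probes have no meaningful order.

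Eraf, the alpha-globin chaperone, was the member that differed. Its probe, for which the files give no genome position, gave 164 ± 16.8 in wild-type and 552 ± 55.3 in PAD4-deficient cells. It ranked 16907 and 11844. The difference was 1.80 with an error of 0.21, a 3.49-fold higher signal. Only 54 of the 25520 measured probes had a higher difference. Of the 9474 measured probes with a wild-type signal between 100 and 1000, 0.317% differed by at least this size in either direction. Eraf was read by 1 probe in 1 spot per array.

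Eraf was the only 1 of the 8 measured member probes that was at least 1.5-fold higher, and none was at least 1.5-fold lower. Among all measured probes, 2.49% reached 1.5-fold on the higher side and 2.08% on the lower side. Eraf also passed 2-fold, as did 0.854% of the measured probes on the higher side. The chaperone stood apart from its client: the Eraf difference exceeded that of Hba-a1 by 2.03 and that of Hba-a2 by 2.03 (error 0.29). Against the beta-globin probes the gap ran from 1.39 to 1.86 with the same error, and against Hbb-y it was 2.06 (error 0.34). These gaps are free of the scaling of the arrays. In bulk RNA, more cells that carry a transcript and more of that transcript per cell cannot be told apart.

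**Figure D3:**
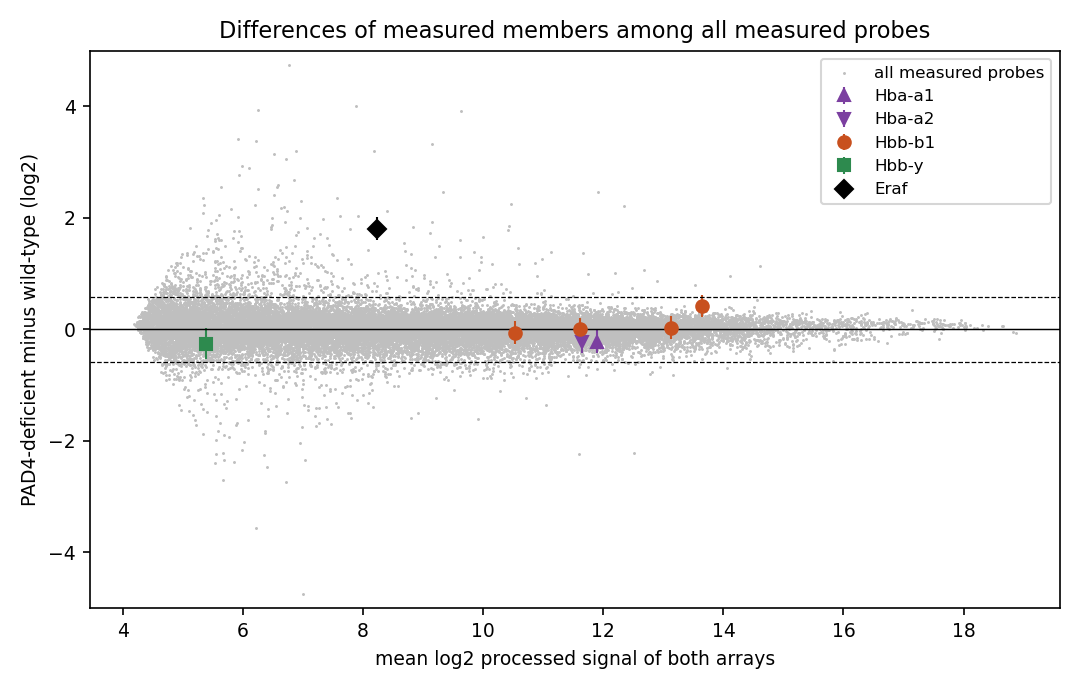
Log2 difference (PAD4-deficient minus wild-type) against the mean log2 processed signal of both arrays for 25520 measured probes (grey), with the 8 measured member probes in colour; bars are the scanner's error and dashed lines mark 1.5-fold. Eraf stands at 1.80, with 54 grey points higher, and the 7 globin probes lie between -0.26 and 0.42.

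Genes that act upstream of the globins or beside them were read from lists, each gene by its brightest measured probe. The lists were chosen with earlier results of these data known, so their counts and medians are descriptions and not independent support. Of 16 globin regulators, 3 were at least 1.5-fold higher and none lower, where 2.88% of all 17019 measured genes were higher and 1.87% lower. Klf1, the factor that activates adult beta-globin, went from a signal of 84.3 to 253.0, a difference of 1.63 (error 0.21). Gata1, the main erythroid GATA factor, went from 244.0 to 458.2, a difference of 0.96 (error 0.07, of a mean over repeated spots). Gfi1b, an erythroid and megakaryocyte repressor, had 0.65 and is named because the count is small. The list median was 0.07, against 0.02 for all measured genes. Bcl11a, which represses embryonic globins, differed by -0.25 (error 0.20) at its brightest probe and by 0.16 at another.

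Of 15 genes of haem synthesis and its transport, which make the cofactor of the globins, none was 1.5-fold different in either direction, with a median of 0.11. Alas2, the erythroid first enzyme of the pathway, had 195 and 136, a difference of -0.47 (error 0.21), on the same side of 0 as alpha-globin. Among early erythroid genes 12 of 15 were measured, of which 7 reached 1.5-fold on the higher side and none on the lower, with a median of 0.85. Of all measured genes, 2.88% reached 1.5-fold on the higher side and 1.87% on the lower. Rhag, Add2 and Tmod1 rose above background on the PAD4-deficient array alone. Ermap, a red cell surface protein, had 2.52 (error 0.28) and Cldn13, a claudin of red cell precursors, had 2.35 (error 0.35). Their wild-type signals were 32.4 and 18.0. The difference of Eraf lay between the median of this list and that of Cldn13, while the highest globin difference, 0.42, lay below the median.

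Of 20 late erythroblast and reticulocyte genes listed, 19 had a probe and 14 were measured, with a median of 0.05. Of the 14, 1 passed 1.5-fold, on the higher side, where 2.88% of all measured genes were higher and 1.87% lower. That gene was Ank1, the membrane skeleton protein ankyrin, at 0.74 (error 0.22), and it fell under 1.5-fold with normexp background correction. Slc4a1, the anion exchanger of the red cell membrane, had signals of 182 on both arrays and a difference of 0.05 (error 0.21). Epb42 and Sptb of the membrane skeleton were not well above background on either array. Ypel4 (22.1 and 15.7) was well above it on the wild-type array alone. Both this list and the early one hold red cell membrane genes, and some genes of this list were bright on both arrays. The medians of these lists thus do not compare stages of red cell development. The 8 erythroblast markers, of which 5 were measured and Epb42 was among those at background, summed to 1.16 in wild-type and 1.75 in PAD4-deficient cells, in units of each array's 75th percentile. Their part in the Eraf and globin values was not tested.

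**Figure D4:**
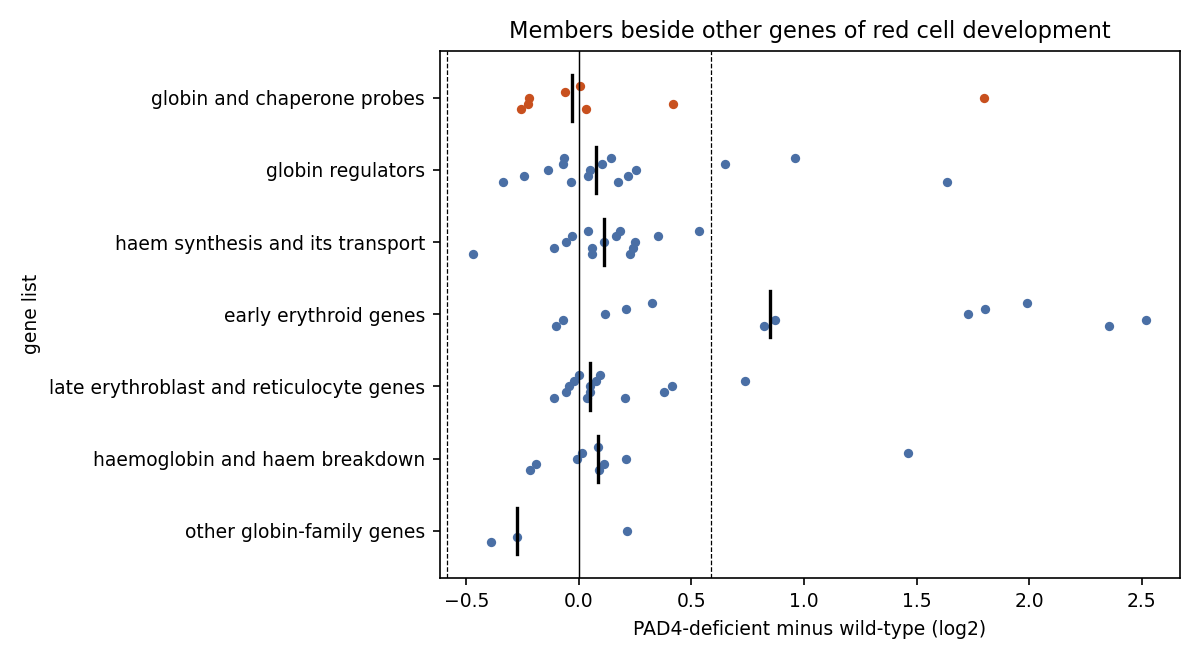
Log2 difference (PAD4-deficient minus wild-type) of the 8 measured globin and chaperone probes (orange) and of the genes of 6 lists by brightest measured probe (blue); black bars are medians and dashed lines mark 1.5-fold. Of the measured genes, 7 of 12 early erythroid genes and 3 of 16 globin regulators lie right of the upper line, as does Eraf.

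The 9 measured genes that handle released haemoglobin and haem had a median of 0.09. Of them, 1 was at least 1.5-fold higher and none lower, where 2.88% of all measured genes were higher and 1.87% lower. It was Hp, which encodes haptoglobin, the plasma protein that binds free haemoglobin and is also made in granulocytes, at 1.46 (error 0.20). Beside it, the 10 neutrophil markers were all above 0 with a median of 0.49, where 9361 of 17019 measured genes were above 0. Their summed level was 150 in wild-type and 226 in PAD4-deficient cells. Mpo, the brightest of them (81966 and 118188), made up much of both sums, so the sums do not count neutrophils. The part of these markers in the Hp value was not tested. Hmox1, which opens the haem ring, had -0.22 (error 0.20). Among other members of the globin family, 3 were measured and none was 1.5-fold different. Ngb, neuroglobin, had -0.39 (error 0.22), Cygb, cytoglobin, had -0.28 (error 0.26) and Hbq1b, a theta-globin, had 0.21 (error 0.29). Hbq1a, the other theta-globin, and Mb, myoglobin, were not well above background on either array, and Adgb was above it on the PAD4-deficient array alone.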

How the data were processed

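Total RNA of sorted LSK cells was amplified and labelled with Cy3 per the labels' protocols. Per the file headers, the authors read 1-colour arrays of Agilent design 014868 with Feature Extraction 9.5.3.1; the submitters' processing notes name version 9.5. The deposited scanner files hold spot intensity values on a linear scale, background-subtracted and detrended by the authors' software, with probe coordinates of build mm8. The authors' deposited value table holds log2 values and equalled log2 of the processed signal minus 9.67 (wild-type) and 9.62 (PAD4-deficient), within 0.03 for 41170 probes, with column medians of -3.59 and -3.53, so scale, centring and direction were settled.

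Log2 processed signal was averaged over unflagged spots and scaled to the 75th percentile of each array. About 63.9% and 64.1% of probes were well above background, and the number of arrays limits the precision. For probes printed several times the SD over spots (log2) was 0.06 and 0.05 at the median, against a scanner error of 0.14 for the members. The members and gene lists were chosen with earlier results of these data known. Named genes were all members, the measured globin-family genes, up to 2 list genes per direction past 1.5-fold, and Klf1, Gata1, Alas2 and Slc4a1, with some list genes not reported here; Gfi1b, Bcl11a, Hmox1, the cell markers and the genes at background were named after their values were seen. RefSeq of GRCm38.p6 gave names and promoters. On 26311 simulated probes with noise below the scanner error and no spread between mice, 100.0% of 200 changed 3-fold passed 2-fold. With such large changes and little noise this checks the code and not the calls at 1.5-fold. Python 3.11.15, numpy 2.4.6, pandas 2.3.3, and limma 3.58.1 in R 4.3.3 (normexp) were used.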

Additional observations from a re-analysis of the deposited data

How the results depend on the processing

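No paired analysis was possible because there was only 1 array of each genotype, which also left no replicate to leave out. Over 8 alternatives (normexp background correction with an offset of 50, scaling to the probes above background on both arrays, median scaling, quantile normalization, the deposited value table, the signal before detrending, all spots by their median, and the median pixel signal), 63 of 64 differences of member probes moved by less than their scanner error. The exception was Eraf with normexp, at 1.5 instead of 1.80; the other alternatives gave up to 1.82. An added offset brings dim probes closer together. Scaling to the probes above background, median scaling, the deposited value table and the spot median shifted all member differences by nearly the same amount. These alternatives could not move 1 member against another, so much of the count of 63 was fixed in advance. The ranges were -0.28 to -0.21 for Hba-a1, -0.28 to -0.17 for Hba-a2, 0.36 to 0.43 for the 3′-most Hbb-b1 probe and -0.33 to -0.10 for Hbb-y. The measured probes at least 1.5-fold higher and lower, 635 and 530, became 246 and 211 with normexp and 3147 and 2079 with no filter on signal, which adds dim probes. Of the ranks recomputed, 46 stayed within the scanner error and 2, both of Hbb-y on the wild-type array, moved from 22256 to 21689 with normexp and with the mean pixel signal minus local background. Of the list counts recomputed, 92 stayed within 1.5 times and 4 moved: Ank1 no longer passed with normexp or at 2-fold, 1 globin regulator in place of 3 passed 2-fold, and Adgb passed when probes above background on 1 array were taken. No gene of these lists was lower past the fold in any setting, so many of the 92 counts could hardly move and say little about stability. Signal over background limits Hba-x, Hbb-bh1 and Hbb-y.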

Other observations

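A further 3 probes are described in the array files as haemoglobin or as similar to it but carry no member's name. The probe of a predicted alpha-globin-like transcript on chromosome 17 gave 29.0 (wild-type) and 30.2 (PAD4-deficient), and the difference was 0.11 (error 0.33). The probe named 2510042H12Rik, of a cDNA from embryonic liver weakly similar to an alpha chain, had 3.68 and 3.73 and was not well above background on either array. The third was the Hbq1 probe, at 3.54 and 3.73.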
